A study of Mus musculus with 3 samples.

Results

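Costimulatory and checkpoint ligands are the surface molecules by which a macrophage drives or restrains the T cell that it meets. The genes followed here were 9 such ligands and receptors, chosen by name among the 36870 gene names of the array: Cd40, Cd80, Cd86, Cd83, Cd274, Pdcd1lg2, Icosl, Cd69 and Cd200r1. All 9 were on the array, with 18 probes of 60 bases between them. RAW264.7 is a transformed mouse macrophage line, so the T cells that carry the partner receptors were not part of the cultures. Cells of the LPS group were stimulated for 3 h with LPS, a cell wall glycolipid of Gram-negative bacteria that TLR4 recognises. Cells of the LOC1 and LOC3 groups were first kept with LOC1 or LOC3, strains of Lactiplantibacillus plantarum isolated from tea leaves, and were washed before the same 3 h of LPS. The labels give 12 h for this preincubation, and the methods give a longer time. RNA of each of the 3 conditions was hybridised to 1 one-colour array, and all 3 conditions therefore include LPS. The array of unchallenged macrophages was not analysed here, and enters only through the log2 ratios to it that the authors deposited. With 1 array per condition, no SD between cultures, test or p-value can be given for any difference.

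In T cell activation, a signal through the antigen receptor is joined by a signal from costimulatory ligands. CD80 and CD86 bind CD28, which stimulates the T cell, and CTLA-4, which inhibits it, while ICOS ligand binds ICOS. PD-L1, encoded by Cd274, and PD-L2, encoded by Pdcd1lg2, bind the inhibitory receptor PD-1. CD40 receives the signal of CD40 ligand on T cells, CD83 keeps MHC class II and CD86 at the surface by opposing the ubiquitin ligase encoded by March1, CD69 is an early activation lectin, and CD200R1 is an inhibitory receptor for CD200. The arrays measured RNA only, and surface protein was not measured.

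Several genes had more than 1 probe, and the results for Cd80, Cd86 and Cd69 turn on which probe is read. The first 30 of the 60 bases of those probes, 5′ to 3′, are therefore shown, in order of signal within a gene, followed by the single probes of Cd83 and Cd274.
Cd80 A_55_P2001218: aaaggagaggtgcctagtcttactgcaact
Cd80 A_51_P418295: gattcctggaagtggcttttgctctttgga
Cd80 A_66_P130432: ttcaatacgactcgcaaccacaccattaag
Cd80 A_52_P244005: agaccggggcacatacagctgtgtcgttca
Cd86 A_55_P1971951: ctggccagttaccaacatgttctgtacaga
Cd86 A_51_P174723: caagagtttccatctcctcaaacgtattgg
Cd86 A_52_P145861: ccaggagacatcactagaatccaaccaaca
Cd86 A_55_P2715366: tggatgggtcaaacataactagaatcgtag
Cd69 A_51_P181286: ttttgtcaattgttctccaccaaagaataa
Cd69 A_55_P2733617: acagacctaggcaggatcgataaaggcttc
Cd83 A_51_P199135: agctattgcgccacgacaggaggaagttct
Cd274 A_51_P248666: ttgatgagtctcatgttaatgtcttgtttg
The files place the Cd80 probes, from first to last in this list, at chr16:38486772-38486831, chr16:38495628-38495688, chr16:38479343-38479402 and chr16:38474174-38474233 of the mm9 build, on the plus strand. The Cd86 probes lie at chr16:36603961-36604020, chr16:36615381-36615440, chr16:36604506-36604565 and chr16:36660860-36660919, on the minus strand. The Cd69 probes lie at chr6:129217697-129217756 and chr6:129223547-129223606, on the minus strand. The Cd83 probe lies at chr13:43898276-43898335 and the Cd274 probe at chr19:29462363-29462422. Whether a probe lies in an exon or a UTR was not looked up, because no annotation of that build was used here.

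Each array was read as the background-corrected intensity of its spots, and differences between arrays as log2 intensity less the array's 75th percentile, which lay at 555 after LPS alone, 513 after LOC1 and 516 after LOC3. Signals were well above background for 51.9%, 50.4% and 47.8% of probes in that order. Spot noise, from 269 bright and 10 dim probes that were printed several times on each array (median 10 prints), had an SD of 0.06 for a log2 difference of bright probes and 0.30 for dim ones. The scanner software's own error model gave an SD of 0.20 to 0.22 for each detected probe of the 9 genes, which lies above the spot noise of bright probes and below that of dim ones. Neither SD holds the variation between cultures. Markers of macrophages were well above background on all arrays for 8 of 8 genes. Their log2 differences from LPS alone ran from -0.89 (Csf1r) to 0.66 (Mertk) with LOC1, and from -0.70 to 0.62 for the same genes with LOC3. T cell markers were not absent, since 4 of 6 were detected on every array, but not Cd3g or Cd8a. Among them Lck, a signalling kinase, had an intensity of 3090 after LPS alone, 4930 after LOC1 and 4810 after LOC3, with log2 differences of 0.79 and 0.74. Cd3e had 396, 416 and 451 (0.18 and 0.29). Cd4 was at 895, 738 and 757 (-0.17 and -0.14), and Cd3d at 66.4, 60.3 and 42.9 (-0.03 and -0.53). The Cd3d difference with LOC1 was thus within the spot noise of dim probes. The cultures were of a macrophage line alone, so marker signals are not read here as the presence or number of other cells.

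Of the 9 genes, 7 were well above background on every array. Cd274 and Cd69 were past the 2-fold threshold in the higher direction and Cd83 in the lower direction after preincubation with either strain, while Cd40, Cd80, Cd86 and Icosl stayed under 2-fold. Pdcd1lg2 and Cd200r1 were not well above background on any array. Against LPS alone, 2 of the 7 genes were thus higher with LOC1, where 2.49% of 20018 genes compared were, and 1 was lower, where 3.81% were. With LOC3, 2 of 7 were higher against a background of 2.97% of 19789 genes, and 1 was lower against 3.18%. The median log2 difference of the 7 genes was 0.12 with LOC1 and 0.14 with LOC3, beside 0.00 and 0.01 over all genes compared. Both comparisons use the same LPS array, so that an error in that array would enter both, and the values are given side by side.

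**Figure D1:**
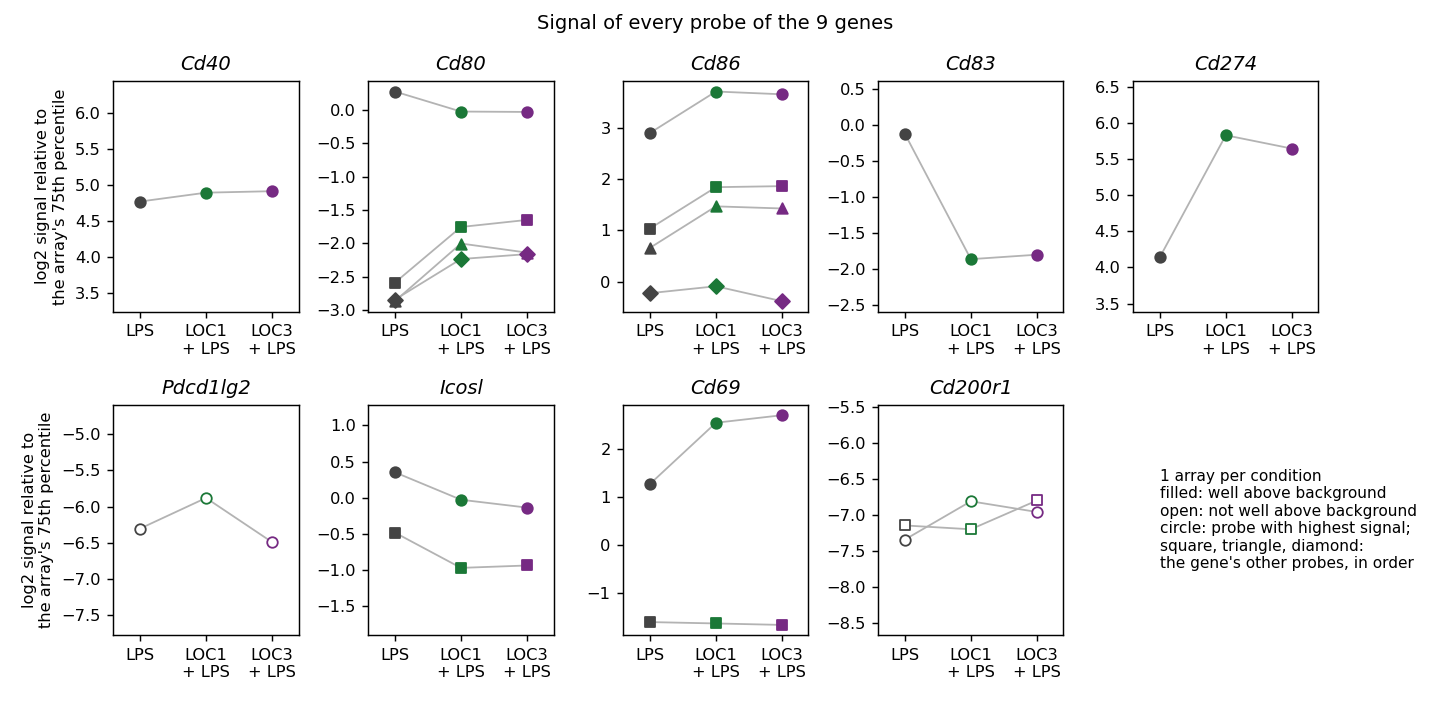
Signal of all 18 probes of the 9 genes on the 3 arrays (log2 intensity relative to the array's 75th percentile; each panel has its own vertical scale), with filled symbols for signals well above background and open ones for signals that were not. Cd274 and the upper Cd69 probe sit higher with LOC1 and LOC3, Cd83 sits lower, and the upper Cd80 probe moves opposite to the gene's other 3 probes.

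Cd274, the ligand of the inhibitory receptor PD-1, had an intensity of 9770 after LPS alone, 29268 after LOC1 and 25908 after LOC3. Both arrays with lactobacilli were above the LPS array, by 1.70 on the log2 scale (3.24-fold) with LOC1 and 1.51 (2.85-fold) with LOC3. The gene was the 152nd highest of 20018 genes with LOC1 and the 271st highest of 19789 with LOC3. Its difference between LOC1 and LOC3 was 0.18, which is larger than the spot noise of 0.06 and smaller than the error model's 0.20. The transcript was read by 1 probe.

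Pdcd1lg2, the second PD-1 ligand and a neighbour of Cd274 on chromosome 19, had 1 probe at chr19:29545473-29545532 (mm9). Its intensities of 7.01, 8.71 and 5.73 were not well above background on any array, and no fold is given. The weakest detected signals lay at 16.3 after LPS alone, 14.5 after LOC1 and 19.8 after LOC3.

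Cd69 was read by a pair of probes that disagreed. The brighter one, which starts at base 1206 of the RefSeq transcript NM_001033122, had an intensity of 1336 after LPS alone, 2991 after LOC1 and 3354 after LOC3. It was higher by 1.27 (2.42-fold) with LOC1 and 1.43 (2.7-fold) with LOC3. The second probe, designed on ENSMUST00000205032 and lying 5.79 kb from the first, had intensities of 183, 166 and 164, so that its differences were -0.03 and -0.06. The brighter probe was the 296th highest of the genes compared with LOC1 and the 307th highest with LOC3, whereas the second was within the spot noise of 0 in both comparisons. Read as the mean of both probes, Cd69 was 0.62 and 0.69 higher, under the 2-fold threshold.

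Cd83, known as a surface marker of mature dendritic cells and activated B cells, was the 1 gene of the 7 past 2-fold in the lower direction. Its single probe had an intensity of 509 after LPS alone, 141 after LOC1 and 148 after LOC3. It was lower by 3.35-fold with LOC1 (-1.74) and 3.2-fold with LOC3 (-1.68), while both signals were still well above background. The spot noise of dim probes, 0.30, applies to signals of this size. It ranked 170th from the lowest with LOC1 and 120th with LOC3. With another background correction, normexp, the differences were -1.40 and -1.36. Markers of dendritic cells moved with Cd83: 5 of 5 were well above background with LPS, 3 with LOC1 and 2 with LOC3, and their summed intensity was 848, 431 and 379. Among these markers the chemokine receptor gene Ccr7 was at 119, 20.1 and 20.4, and Zbtb46, a transcription factor of the lineage, at 591, 320 and 281. Itgax was at 63.6, 75.5 and 65.7. The fall was not particular to this list. Summed intensity was also lower with the strains for markers of macrophages (478880, 383856 and 415849), fibroblasts (207, 125 and 143) and epithelial cells (32, 17 and 18). It was higher for T cell markers (4451, 6155 and 6078), and for B cell markers it was 92, 109 and 66. The part of these markers in the Cd83 difference was not tested.

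Cd80 and Cd86 encode the paired ligands of CD28 and CTLA-4. For Cd86, 3 probes on the RefSeq transcript NM_019388, starting at bases 815, 1928 and 2473, gave nearly the same difference. The brightest of them had an intensity of 4145 after LPS alone, 6731 after LOC1 and 6522 after LOC3, higher by 0.81 and 0.76, that is under 2-fold. The probe at base 815 had intensities of 1137, 1842 and 1880, and the probe at base 1928 had 875, 1421 and 1389. All 3 probes differed by 0.81 with LOC1, and by 0.76 to 0.83 with LOC3. The remaining probe, designed on ENSMUST00000145506 and 45.4 kb away from the nearest of the others, had intensities of 474, 482 and 396. It differed by 0.14 with LOC1 and -0.16 with LOC3, apart from the other 3 by more than the spot noise. Scaling the arrays by their medians, which puts the median of all genes at 0.22 with LOC1 and 0.20 with LOC3, placed Cd86 at 1.03 and 0.94, past 2-fold with LOC1 only. Relative to that median it was 0.81 and 0.74.

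For Cd80, the direction depended on the probe. The brightest, at base 1457 of NM_009855, had an intensity of 671 after LPS alone, 504 after LOC1 and 505 after LOC3, with log2 differences of -0.30 and -0.31. The probe on XM_017316857 had intensities of 92.0, 152 and 164, the probe at base 872 had 75.9, 128 and 117, and the probe at base 583 had 77.1, 109 and 115. These 3 were higher in both groups, by 0.61 to 0.87 with LOC1 and 0.68 to 0.94 with LOC3, all under 2-fold. Their signals were in the range where spot noise had an SD of 0.30, and the mean of all 4 probes was 0.50 and 0.51 higher. The gap between the highest and the lowest probe was 1.17 with LOC1 and 1.25 with LOC3. A gap of at least 1 was seen for 12% of the 6823 genes with several detected probes in the LOC1 comparison and for 12.5% of 6755 in the LOC3 comparison. Thus, no single direction is given here for Cd80.

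**Figure D2:**
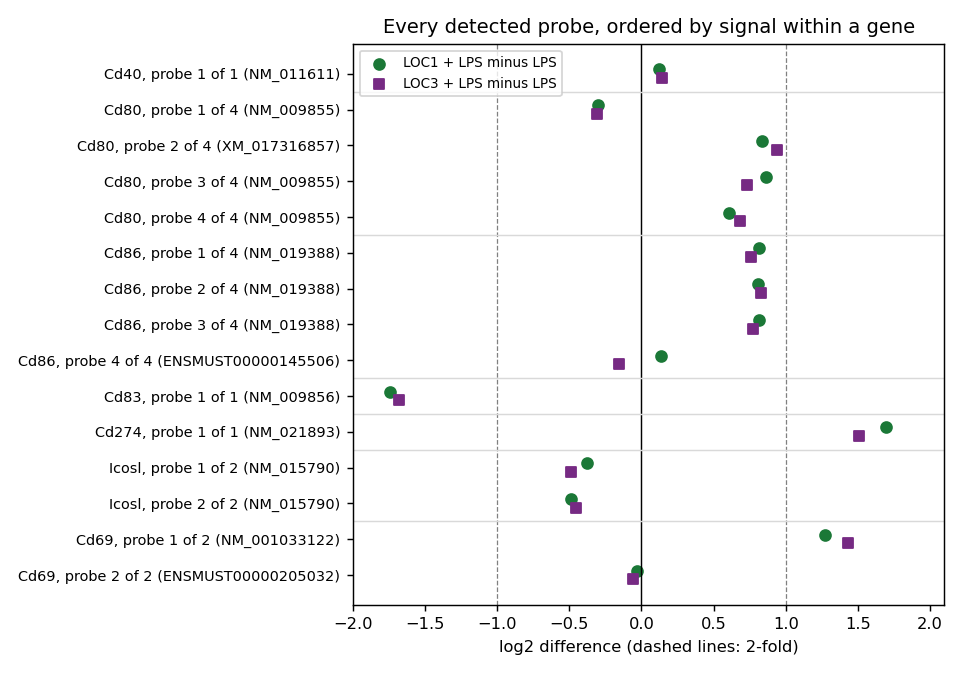
Log2 difference from the LPS array for each of the 15 detected probes (circles, LOC1; squares, LOC3; dashed lines, 2-fold), grouped by gene and ordered by signal. The brightest Cd80 probe lies on the other side of 0 from its 3 companions, and the lower Cd86 and Cd69 probes lie close to 0.

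Icosl, the ligand of ICOS, was, of the detected genes with more than 1 probe, the one whose probes differed least from each other. The probe at base 2139 of NM_015790, at chr10:77541662-77541721 (mm9), had an intensity of 707 after LPS alone, 503 after LOC1 and 469 after LOC3, and differences of -0.38 and -0.49. The probe at base 363, at chr10:77534559-77534618, had intensities of 396, 261 and 269, and differences of -0.49 and -0.46. Both were lower with either strain by more than the spot noise, and under 2-fold. Scaled by the medians of the arrays, Icosl lay at -0.16 with LOC1 and -0.31 with LOC3, and relative to the median of all genes at -0.38 and -0.50.

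Cd40, the receptor for CD40 ligand, was nearly level among the 3 arrays, at an intensity of 15179 after LPS alone, 15294 after LOC1 and 15610 after LOC3. Its differences of 0.12 and 0.14 were larger than the spot noise of 0.06 for bright probes and smaller than the error model's SD of 0.20. The probe lies at chr2:164896301-164896360 (mm9).

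Cd200r1, the inhibitory receptor for CD200, had intensities of 3.42 after LPS alone, 4.58 after LOC1 and 4.16 after LOC3 for one probe, and 3.93, 3.50 and 4.65 for the other. None was well above background, so the gene was not compared.

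Over the 15 detected probes of the 7 genes, 10 were above and 5 below 0 with LOC1, and 9 were above and 6 below 0 with LOC3. In both comparisons 2 probes were past 2-fold higher and 1 was past 2-fold lower. Between LOC1 and LOC3 no probe was past 2-fold, and the differences ran from -0.16 to 0.29. Counted as genes, 0 of 7 were higher with LOC1 than with LOC3, where 0.8% of 19381 genes were, and 0 were lower, where 1.83% were. Of the genes, read by their brightest probes, Cd274 at 0.18 was furthest towards LOC1 and Cd69 at -0.16 furthest towards LOC3. The 0.29 belonged to the ENSMUST00000145506 probe of Cd86.

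**Figure D3:**
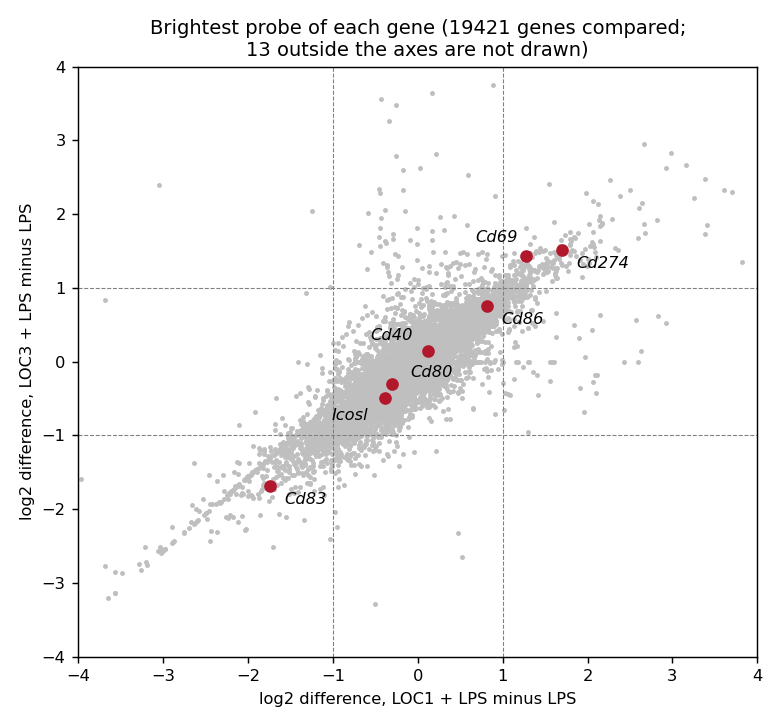
Log2 difference from the same LPS array with LOC1 (horizontal) and LOC3 (vertical) for the brightest probe of each of 19421 genes (grey), with the 7 detected genes in red and dashed lines at 2-fold. Cd274 and Cd69 sit past 2-fold higher on both axes and Cd83 past 2-fold lower, and because both axes subtract 1 shared array, part of the diagonal spread of the grey points is shared by construction.

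The deposited log2 ratios set each array against unchallenged macrophages. They hold 13135 probes, list no ratio under 2-fold, and include 10 of the 18 probes of the 9 genes, so that a probe that is not listed has no value here. With LPS alone, 7 of the 7 genes detected on that array had at least 1 probe listed as higher, where 13.6% of 19335 detected genes did, and 0 had one listed as lower, where 9.11% did. Counting only the brightest probe of a gene, 4 of 7 were listed as higher against 11.1% of 19311 genes, and 0 were listed as lower against 7.19%. Where the signal implied for unchallenged cells fell short of the LPS array's weakest detected signal (16.3), the fold is given as a lower bound.

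Cd69 had a deposited log2 ratio of 8.60 after LPS alone, 9.91 after LOC1 and 10.07 after LOC3 at its brighter probe, which is at least 81.9-fold with LPS. Its second probe was listed at 5.76, 5.77 and 5.74, at least 11.2-fold with LPS, so that both probes were higher after LPS while the brighter one alone was higher again with the strains. The ratio of Cd83 was 6.87 with LPS, at least 31.2-fold, against 5.16 with LOC1 and 5.23 with LOC3. The lower Cd83 signal with the strains thus remained above that of unchallenged cells in the deposited values. Cd274 was listed at 6.58 (95.6-fold) with LPS, 8.31 with LOC1 and 8.13 with LOC3, from an implied intensity of 102 in unchallenged cells. Cd40 was listed at 5.68 (51.1-fold), 5.83 and 5.86, so that it was far above unchallenged cells and at about the same ratio in all 3 groups.

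The other ligands had smaller ratios and less even listing. Icosl was listed by its dimmer probe alone, at 2.75 (6.74-fold) with LPS, 2.30 with LOC1 and 2.33 with LOC3. Cd80 was listed by the XM_017316857 probe at 3.26, 4.13 and 4.24, at least 5.64-fold with LPS, and by the probe at base 583 at 2.62, 3.26 and 3.34, at least 4.73-fold. Its brightest probe, the one lower with the strains, was not listed. Cd86 was listed with LPS only by the ENSMUST00000145506 probe, at 2.26 (4.78-fold), with 2.43 with LOC1 and 2.14 with LOC3. For the Cd86 probe at base 815 the LPS ratio is blank, and rebuilt from the intensities it was 0.47, whereas it was listed at 1.31 with LOC1 and 1.34 with LOC3. At that probe Cd86 was thus past 2-fold against unchallenged cells in both groups with lactobacilli and under 2-fold with LPS alone. Pdcd1lg2 and Cd200r1 were not listed.

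**Figure D4:**
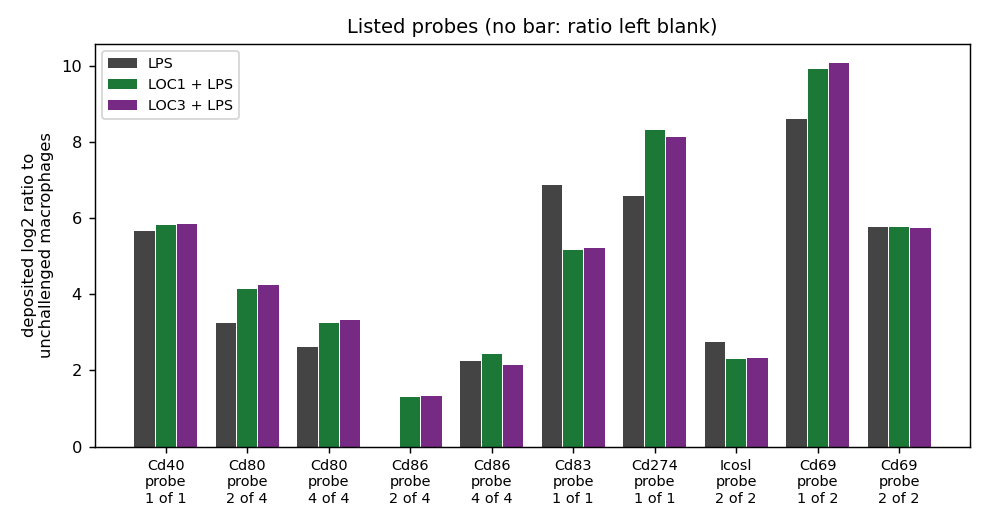
Deposited log2 ratio to unchallenged macrophages for the 10 listed probes of the 7 genes, as bars from 0 for LPS (grey), LOC1 plus LPS (green) and LOC3 plus LPS (purple). All are above 0, the Cd274 and brighter Cd69 bars are taller with the strains, the Cd83 bars are shorter, and 1 Cd86 bar is missing because that ratio is blank.

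The wider pathway was read from a list of 43 other genes on the array: further ligands of the B7, TNF and SLAM families, the partner receptors, and the TRAF adaptors of CD40. Of the 30 compared with LOC1, 2 were past 2-fold higher and 3 lower, with a median difference of 0.15. Of the 31 compared with LOC3, 3 were higher and 2 lower, with a median of 0.14. The corresponding shares over all genes are those given above, 2.49% and 3.81% with LOC1 and 2.97% and 3.18% with LOC3. Between LOC1 and LOC3, 0 of 29 were higher and 1 was lower with LOC1, Slamf1.

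Among ligands, Slamf7, a self-ligand of the SLAM family, had an intensity of 118 after LPS alone, 983 after LOC1 and 699 after LOC3, higher by 3.17 and 2.66. Tnfsf18, which encodes the ligand of the costimulatory receptor GITR, was not well above background with LPS at 9.52 and was at 39.9 with LOC1 and 33.4 with LOC3, at least 2.64-fold and 2.2-fold higher. Tnfsf14, the gene of the ligand LIGHT, went the other way, from 185 with LPS to 3.75, not well above background, with LOC1 and 23.9 with LOC3. The difference was at least 11.8-fold with LOC1, and -2.85 on the log2 scale with LOC3. Tnfsf9, which encodes the ligand of 4-1BB, was under 2-fold at 9989, 16989 and 16118 (0.88 and 0.79).

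Of the receptors, Havcr2, which encodes the inhibitory receptor TIM-3, had intensities of 186, 43.0 and 49.1, lower by 4-fold with LOC1 and 3.52-fold with LOC3. Icos, the partner of Icosl, was detected by its brighter probe at 33.2 after LPS alone and on neither array with lactobacilli. That makes it lower by at least 2.11-fold after LOC1 and by at least 1.56-fold after LOC3. The other Icos probe, at 3.75, 3.38 and 4.58, was not well above background on any array, LPS alone included. Pdcd1, which encodes PD-1, was at 208, 184 and 167 (-0.06 and -0.21), and Cd28 at 271, 275 and 222 (0.14 and -0.18). Neither partner of Cd274, Cd80 or Cd86 was therefore past 2-fold here, and Ctla4, Cd40lg and Cd200 were not well above background on any array. Slamf1 gave opposite readings: 1 probe had 8.88, 9.94 and 260 and was well above background with LOC3 alone, while the other had 80.6, 16.6 and 13.3 and was well above background with LPS alone. The first was at least 17.1-fold higher with LOC3 than with LPS, and the second at least 4.49-fold lower with LOC1 and 3.78-fold lower with LOC3.

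Among genes that act on the members inside the cell, Traf1, an adaptor of CD40 and other TNF receptors, was at 38528 after LPS alone, 58191 after LOC1 and 57256 after LOC3, higher by 0.71 and 0.68. Traf2, Traf3, Traf5 and Traf6 were under 2-fold as well. March1, the ligase that removes CD86 and MHC class II from the surface, was at 864, 537 and 467, with differences of -0.57 and -0.78, under 2-fold.

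**Figure D5:**
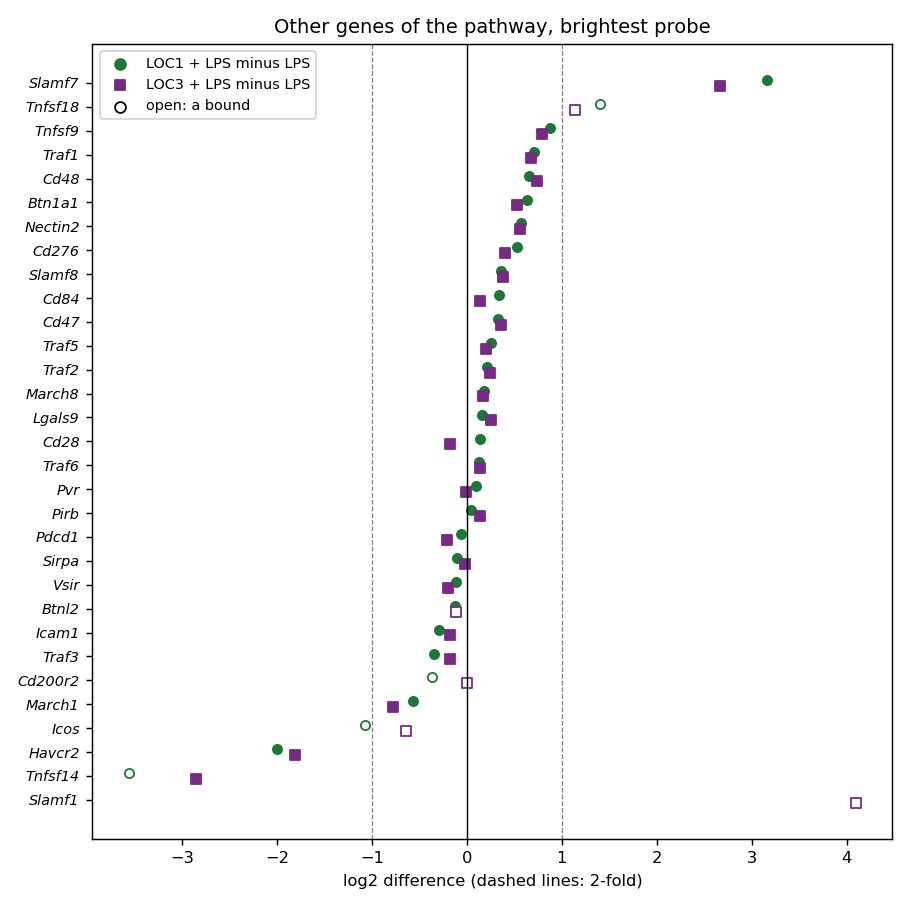
Log2 difference from the LPS array for the 31 other genes of the pathway that were compared with at least 1 strain (circles, LOC1; squares, LOC3; open symbols, bounds; dashed lines, 2-fold). Slamf7 and Tnfsf18 sit past 2-fold higher and Tnfsf14 and Havcr2 past 2-fold lower with both strains, and the open square of Slamf1 stands for 1 of that gene's 2 disagreeing probes.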

How the data were processed

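The authors' RNA from RAW264.7 macrophages was hybridised to 1-colour arrays, 1 per condition. Intensity values of every spot were deposited as Feature Extraction gave them (version 12.0.3.1 per the file headers), background-subtracted and with no scaling between arrays. The authors deposited log2 ratios to unchallenged macrophages, made in GeneSpring and, per the labels, limma in R 3.2.5, with ratios under 2-fold left blank. Between columns these ratios matched the intensities after shifts of -0.03 (LOC1) and -0.04 (LOC3).

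Here, spots marked as outliers were left out (135 with LPS, 118 with LOC1 and 133 with LOC3), none of them of the 9 genes. No spot was saturated. Log2 intensity less the array's 75th percentile was compared between 2 arrays where either of them detected the gene (well above background in the scanner software). An undetected signal was raised to the weakest detected signal of its array, and the fold then reads "at least". A gene is its probe of highest mean signal, and a call is a difference of 2-fold. The arrays' number limits precision. The SD of spot noise comes from probes printed several times, split into bright and dim by their mean signal. The comparison of arrays and the 2-fold call were run on simulated data, but the scaling and the averaging of spots were not. The planted changes lay past the threshold by far more than the simulated noise, so their recovery says little about real differences. All 9 genes matched RefSeq by symbol and 15 of 18 probes by accession. Levels of different probes were not set against each other except to order them by signal. Python 3.11.15, numpy 2.4.6, pandas 2.3.3, matplotlib 3.10.9 and, for normexp with an offset of 50, limma 3.58.1 in R 4.3.3 were used. The alternatives were other scalings (medians, quantiles, percentile over detected probes), normexp, other filters on dim probes, the mean of the detected probes, each probe alone, outlier spots kept, a 3-fold threshold and the deposited ratios. Counting the deposited ratios by the brightest probe was added after seeing the data. The genes named are all 9, and of the pathway list those past 2-fold or paired with one of the 9. Tnfsf9, the Traf genes, March1 and the single marker genes were named after their values were seen. The members and lists were chosen with earlier results of these data known. The significance test between groups that the study's methods name needs replicates and was not run on these arrays.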

Additional observations from a re-analysis of the deposited data

How the results depend on the processing

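Of 108 recomputed counts, 92 stayed within 1.5 times the reported count and 16 moved; of 201 recomputed differences of single genes, 152 moved by less than the technical SD and 49 by more, and no called difference changed sign. The count of the 9 genes past 2-fold higher was 2 with either strain. Taking the mean of the detected probes, it was 1 for each strain (Cd274), and 1 with LOC1 and 0 with LOC3 at 3-fold. For LPS against unchallenged cells, 4 genes in place of 7 were listed as higher by the brightest probe only. For the pathway list with LOC1, the count higher (2) was 1 with normexp, 1 among genes well above background on both arrays, 5 with no filter and no floor and 1 at 3-fold, and the count lower (3) was 1, 5 and 5 among genes on both arrays, with no filter and with every probe counted. With LOC3, the count higher (3) was 1 among genes on both arrays, and the count lower (2) was 1 with normexp, 4 with no filter and 4 with every probe. The cause of these changes was not tested. Cd80 turned from -0.30 and -0.31 to 0.50 and 0.51 as the mean of its probes. In the deposited ratios, which leave out its brightest probe, it was 0.87 and 0.98. No paired analysis was possible because each condition has 1 array. For dim probes, signal over background limits what can be seen: Pdcd1lg2 and Cd200r1 cannot be compared.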
